A study of Mus musculus with 24 samples.

Results

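The transcripts of 9 regulators of cytokine and interferon signalling were followed in organs of Corti (OCs), the strips of cochlea that hold the auditory hair cells (HCs), taken from C57BL/6N pups, male and female, at an age of 5 days. The members were the transcription factors Stat2, Stat3, Stat5a, Stat5b, Irf1 and Irf9 and the inhibitors Socs1, Socs3 and Cish. They were found by gene symbol, and they made 9 of the 24454 gene identifiers in the count table. OCs of all groups were first kept for 24 h in medium with serum and penicillin. Culture then went on for 6 or 24 h, either with no drug added (CTRL) or with 50 µM gentamicin (GM), which is an aminoglycoside antibiotic that harms HCs. Other OCs received 10 µM pioglitazone (PIO), a diabetes drug that activates PPAR-γ, alone or along with the gentamicin (PIO + GM). Each of the 8 groups held 3 libraries (24 in all), and each library was made from 6 pooled OCs. The labels do not say whether replicates came from separate litters or days, so p-values measure the spread between these libraries, which may be technical. The study asked which signalling pathways pioglitazone acts on in OCs exposed to gentamicin.

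STAT proteins are latent transcription factors of the cytoplasm. When a cytokine binds its receptor, Janus kinases phosphorylate them, and they pair, enter the nucleus and bind DNA at GAS elements. Type I interferon signals through a complex called ISGF3, which holds STAT2 and IRF9 and binds interferon-stimulated response elements (ISREs). IRF1 binds similar elements and is itself an early target of interferon-γ. STAT3 answers to the IL-6 family, and STAT5A and STAT5B answer to growth hormone, prolactin and several interleukins. SOCS1, SOCS3 and CISH are made in answer to activated STATs and damp the same receptors and kinases, which closes a negative feedback loop. Phosphorylation of STATs was not measured in these libraries, and all values below are levels of RNA.

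All 9 members passed the filter on low counts, as did 16317 genes in all. The libraries held 7211357 to 15548856 counts (median 12538495), and the lowest total belonged to PIO + GM replicate 3 at 6 h. A count of 3, taken as the lowest level that this depth can show, equals between 0.193 and 0.416 CPM (counts scaled to a common library total), for counting error only, and the lowest member value in any library was 1.62 CPM. As a check of the tissue, all 10 HC genes and all 10 supporting cell genes of the marker lists were detected in every group.

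Compared per kilobase of gene length (RPKM), Stat3 was the most abundant member. Its mean over the 24 libraries was 41.8 RPKM ± 7.99 (SD), followed by Irf9 at 18.1 ± 5.74, Stat2 at 12 ± 5.42, Stat5b at 10.3 ± 2.43, Socs3 at 9.86 ± 4.69, Irf1 at 7.58 ± 1.68, Stat5a at 6.56 ± 1.55, Cish at 3.04 ± 1.15 and Socs1 at 2.42 ± 0.629 RPKM. Stat3 lay above Irf9, Irf9 above Stat2 and Stat5a above Cish in 24 of 24 libraries. The order of the other members depended on the time. At 6 h Stat2 (14.5 RPKM ± 6.63, SD, n = 12) and Socs3 (12.9 ± 4.74) each exceeded Stat5b (8.6 ± 2.11) in 11 of 12 libraries. At 24 h Stat5b (12.1 ± 1.17) exceeded Stat2 (9.42 ± 1.76) in 11 of 12 libraries and Socs3 (6.82 ± 1.83) in all 12. Cish exceeded Socs1 in 12 of 12 libraries at 6 h, while at 24 h Socs1 exceeded Cish in 7 of 12. Neighbours that kept 1 order in fewer than 11 of 12 libraries were Stat2 and Socs3 (7 of 12), Stat5b and Irf1 (9) and Irf1 and Stat5a (9) at 6 h, and Irf1 and Socs3 (8), Socs3 and Stat5a (6) and Socs1 and Cish (7) at 24 h.

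**Figure D1:**
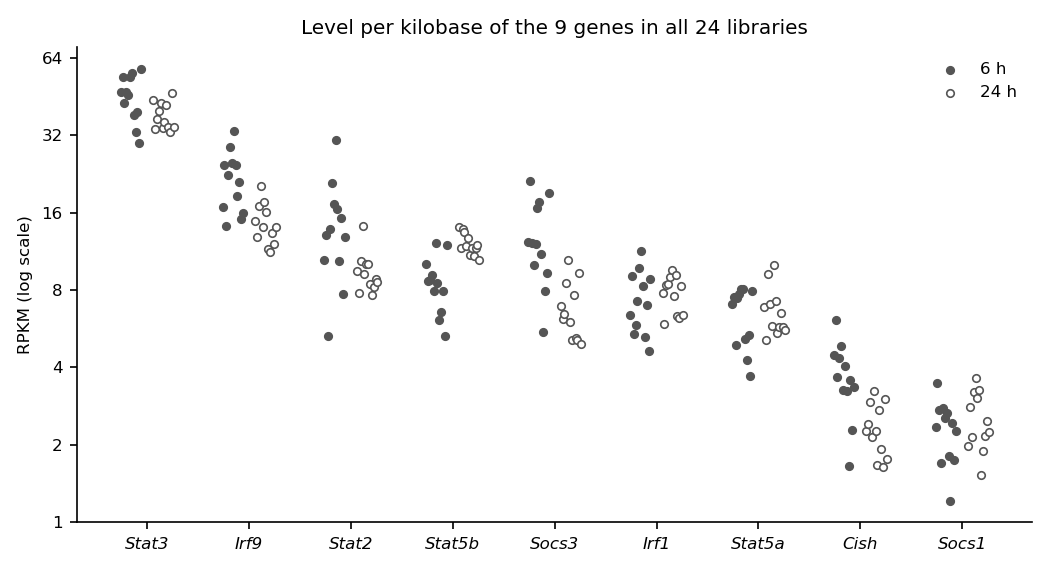
Level of each member per kilobase of gene length (RPKM, log scale) in the 12 libraries at 6 h (filled circles) and the 12 libraries at 24 h (open circles), with genes ordered by their mean. Stat3 stands above the other members, and the mean of Stat5b sits lower than Stat2 and Socs3 at 6 h and higher at 24 h.

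Since GAS elements and ISREs are the sites through which these factors regulate one another, the sequence upstream of each member was searched for both. RefSeq (build GRCm38.p6) gave 13 start sites for the 9 genes, and the 250 bases before each were read on both strands for a GAS (TTCNNNGAA) and for an ISRE (GAAA, any 2 bases, GAAA). A GAS was found in 2 of the 13 windows, those of Irf1 and Socs3, and an ISRE in 2, those of Stat2 and Socs1. Among all 32851 promoters of the same table, 7.02% held a GAS and 2.98% an ISRE. The other 9 windows, which include those of Stat3, Stat5a, Stat5b, Irf9 and Cish, held neither pattern, which says only that these letters are not in these windows. Several windows lie in part or wholly in GENCODE exons of the same gene, with all 250 bases in that of Cish and in 1 of 2 of Irf9 (88 in the other), 175 and 139 in those of Stat5a, 143 in 1 of 2 of Stat5b, 56 in 1 of 2 of Irf1 and 77 in that of Socs3. The 4 upstream sequences with a match are shown because they are the members whose own promoter carries the pattern of a factor in the list. Each is written 5′ to 3′ on the strand of its gene in lower case, and the capitals mark the GAS or ISRE.
Stat2: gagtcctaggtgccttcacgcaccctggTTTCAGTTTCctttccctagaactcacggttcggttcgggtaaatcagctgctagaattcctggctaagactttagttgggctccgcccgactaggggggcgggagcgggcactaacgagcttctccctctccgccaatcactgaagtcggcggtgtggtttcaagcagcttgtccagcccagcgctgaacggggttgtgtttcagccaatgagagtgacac
Irf1: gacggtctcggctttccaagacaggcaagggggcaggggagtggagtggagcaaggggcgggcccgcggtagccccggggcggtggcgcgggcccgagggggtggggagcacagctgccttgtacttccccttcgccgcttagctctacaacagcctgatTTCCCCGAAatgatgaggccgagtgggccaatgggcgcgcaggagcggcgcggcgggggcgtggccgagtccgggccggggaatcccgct
Socs1: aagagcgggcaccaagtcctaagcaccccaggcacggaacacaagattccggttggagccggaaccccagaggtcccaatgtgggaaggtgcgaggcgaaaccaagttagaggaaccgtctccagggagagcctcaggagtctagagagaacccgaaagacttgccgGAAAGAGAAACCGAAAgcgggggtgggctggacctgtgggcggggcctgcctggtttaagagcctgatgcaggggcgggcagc
Socs3: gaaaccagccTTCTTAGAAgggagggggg
The Stat2 sequence is chr10:128270248-128270497 on the plus strand, and its ISRE, read on the opposite strand, begins 222 bases before the start. The Irf1 sequence is chr11:53769764-53770013 on the plus strand, with the GAS 90 bases before the start. For Socs1 the sequence is chr16:10785537-10785786 on the minus strand, and its 2 ISREs begin 83 and 77 bases before the start and share 4 bases. Only 29 bases around the GAS of Socs3, which begins 154 bases before the start, are printed, chr11:117969502-117969530 on the minus strand. The start used for Socs3 is that of the RefSeq promoter table and lies inside the full span of the gene given next, so these bases are within that span, but none of them is in an annotated exon. A match is a description of the letters and not a bound site.

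The RefSeq genes lie at chr10:128270498-128292853 (Stat2), chr11:100886806-100939594 (Stat3), chr11:100859351-100885169 (Stat5a), chr11:100780731-100859004 (Stat5b), chr11:53770014-53778374 (Irf1), chr14:55603985-55610030 (Irf9), chr16:10783808-10785536 (Socs1), chr11:117966079-117970336 (Socs3) and chr9:107296659-107302784 (Cish) in GRCm38.p6. Stat5b, Stat5a and Stat3 are neighbours, with 346 bases between Stat5b and Stat5a and 1636 bases between Stat5a and Stat3. In the GENCODE annotation of the same build, Stat3 overlaps Stat5a on the opposite strand, Irf1 overlaps 1 gene and Cish overlaps 2 on the opposite strand, and whether the counting of these stranded libraries used the strand is not stated, so reads of such partners cannot be told apart. Of the stretches of 76 bases, the read length, along the longest transcript, 6% in Stat5a and 7.42% in Stat5b also occur in the other of the pair, 11.3% in Cish occur in its overlapping genes and 1.26% in Irf1 in its own.

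**Figure D2:**
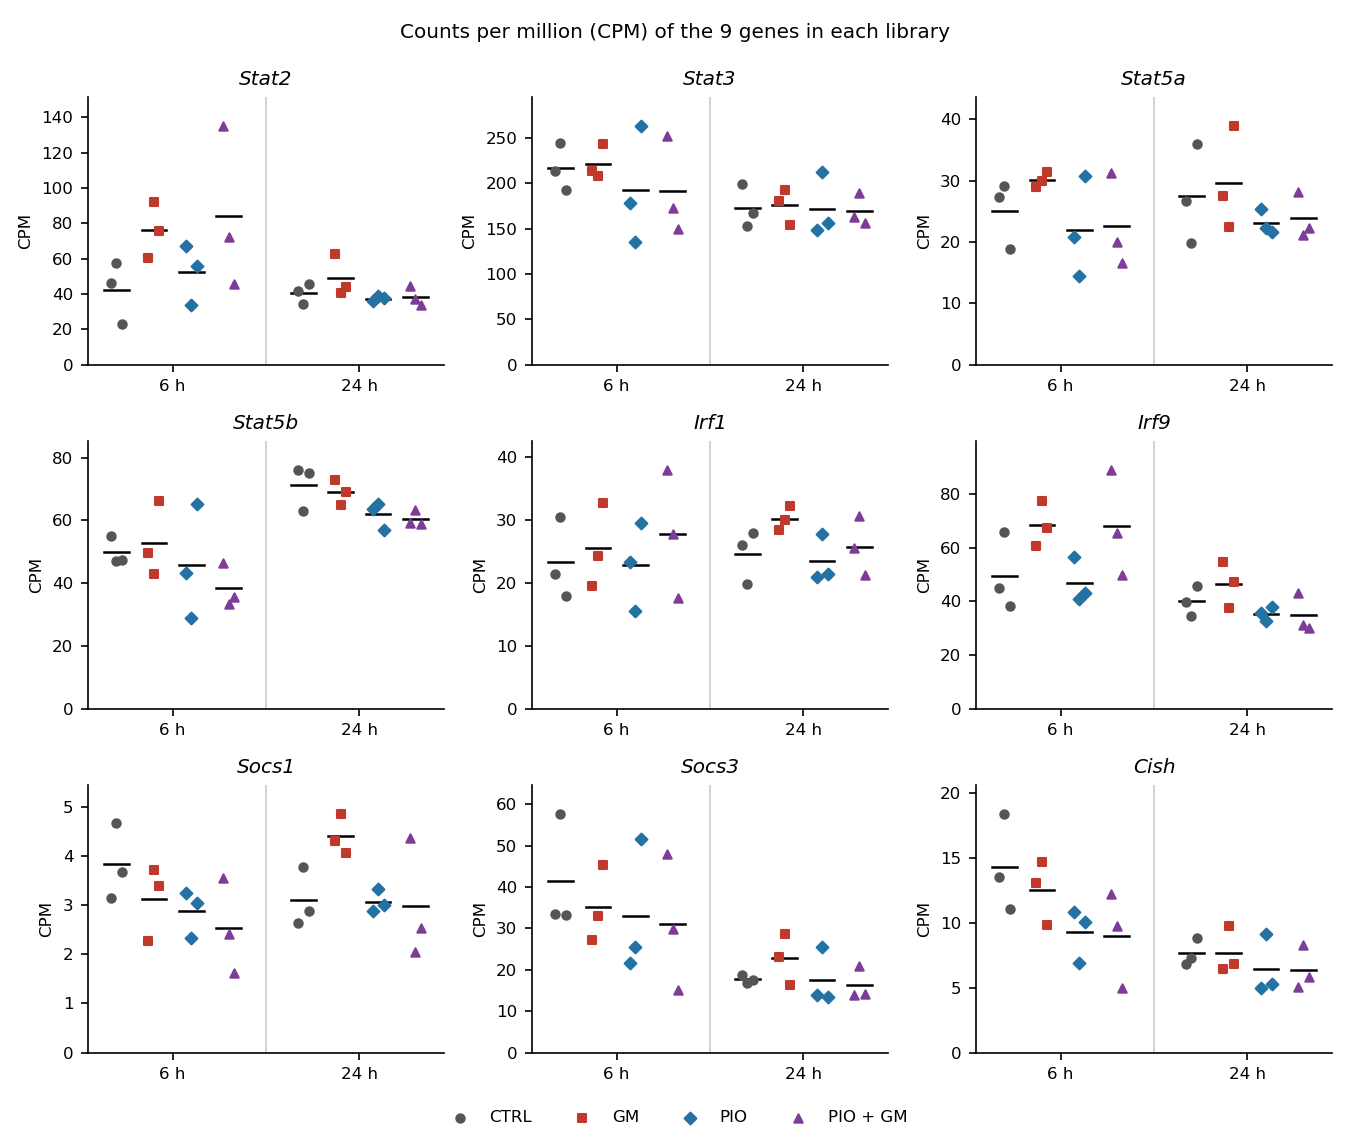
Level of each member in CPM in every library, for CTRL (circles), GM (squares), PIO (diamonds) and PIO + GM (triangles) at 6 h and 24 h. Each symbol is 1 library and each bar the mean of the 3 libraries of a group. Socs3 and Cish are lower at 24 h than at 6 h in CTRL, Stat2 and Irf9 are lower at 24 h in PIO + GM, and Stat5b is higher at 24 h in PIO + GM.

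Stat2 and Irf9 encode the partners of ISGF3. At 6 h Stat2 stood at 46.2, 57.5 and 23.3 CPM in CTRL, at 60.6, 92 and 75.5 CPM in GM, at 67.1, 34 and 56.1 CPM in PIO and at 135, 72.3 and 45.5 CPM in PIO + GM. By 24 h it stood at 41.7, 34.2 and 45.7 CPM in CTRL, at 62.4, 40.7 and 44.2 in GM, at 36.1, 38.6 and 37.6 in PIO and at 44.5, 37.1 and 33.6 in PIO + GM. All 3 GM libraries at 6 h were above all 3 CTRL libraries, while PIO + GM at 6 h was spread from within the CTRL range to the highest value of the series. The values at 24 h were closer together, with the 3 PIO libraries between 36.1 and 38.6 CPM.

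Irf9 at 6 h stood at 45.1, 65.7 and 38.1 CPM in CTRL, at 60.6, 77.5 and 67.3 CPM in GM, at 56.6, 40.7 and 43 CPM in PIO and at 89, 65.5 and 49.9 CPM in PIO + GM. Its 24 h libraries held 39.9, 34.4 and 45.7 CPM in CTRL, 54.7, 37.6 and 47.4 in GM, 35.8, 32.6 and 37.8 in PIO and 43.2, 31 and 30.1 in PIO + GM. The 3 GM libraries at 6 h lay above the 3 PIO libraries, and GM and CTRL overlapped.

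Between treatments, neither gene passed in the main edgeR fit. For each gene the difference was tested with edgeR's quasi-likelihood F-test over all 24 libraries, and the Benjamini-Hochberg adjustment ran over the 16317 genes. In GM at 6 h Stat2 had a mean of 76.1 CPM against 42.3 CPM in CTRL, a log2 fold change of 0.85 (SE 0.33, unadjusted p = 0.0199, edgeR adjusted p = 1.00), which was 0.56 without CTRL replicate 3 and 1.13 without CTRL replicate 2 at 6 h. In PIO + GM at 6 h its mean was 84.3 CPM, a log2 fold change of 1.00 against CTRL (SE 0.33, unadjusted p = 0.00751, edgeR adjusted p = 0.0957), with overlapping libraries. That value was 0.48 without PIO + GM replicate 1 at 6 h (edgeR adjusted p = 0.285) and 1.29 without replicate 3. It passed with the replicate number as a block and the trend with GC content removed (1.07, edgeR adjusted p = 0.0422), and by DESeq2 (1.00, DESeq2 adjusted p = 0.041). Irf9 in GM at 6 h had a mean of 68.5 CPM against 49.6 in CTRL (log2 fold change 0.46, SE 0.22, unadjusted p = 0.0485, edgeR adjusted p = 1.00), which was 0.31 without CTRL replicate 3 and 0.72 without CTRL replicate 2 at 6 h. Against PIO at 6 h, with 46.7 CPM, Irf9 differed by a log2 fold change of 0.54 in PIO + GM (SE 0.22, unadjusted p = 0.0232, edgeR adjusted p = 1.00) and the PIO against GM value was -0.55 (SE 0.22, unadjusted p = 0.022, edgeR adjusted p = 0.248). The value of 0.54 was 0.30 without PIO + GM replicate 1 at 6 h. Averaged over the presence and absence of pioglitazone, a contrast added after the data were seen, gentamicin at 6 h gave log2 fold changes of 0.77 for Stat2 (SE 0.24, unadjusted p = 0.00404, edgeR adjusted p = 0.813) and 0.50 for Irf9 (SE 0.16, unadjusted p = 0.00428, edgeR adjusted p = 0.84). Without PIO + GM replicate 1 at 6 h these were 0.51 and 0.39. Neither gene had an unadjusted p under 0.05 in any treatment comparison at 24 h.

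Between 6 h and 24 h both genes fell in PIO + GM. Stat2 fell from a mean of 84.3 to 38.4 CPM, a log2 fold change of -1.14 (SE 0.34, edgeR adjusted p = 0.0137), and Irf9 fell from 68.1 to 34.7 CPM, a log2 fold change of -0.97 (SE 0.22, edgeR adjusted p = 0.00261). The libraries of the 2 times did not overlap for either gene. The Stat2 call was lost without PIO + GM replicate 1 at 6 h (log2 fold change -0.61, edgeR adjusted p = 0.135), the library with 135 CPM, and without PIO + GM replicate 3 at 24 h (log2 fold change -1.04, edgeR adjusted p = 0.0537). The Irf9 call held without each of the 6 libraries in turn, with edgeR adjusted p between 0.000988 and 0.0189. In GM Irf9 had a log2 fold change of -0.56 (SE 0.22, unadjusted p = 0.0202, edgeR adjusted p = 0.0712). In CTRL and PIO neither gene had an unadjusted p under 0.05 between the times. Whether the time difference of PIO + GM differed from that of CTRL was tested as an interaction, added after the data were seen. It gave -1.07 for Stat2 (SE 0.47, unadjusted p = 0.0342, edgeR adjusted p = 0.736) and -0.66 for Irf9 (SE 0.31, unadjusted p = 0.0484, edgeR adjusted p = 0.736), and neither passed. Without PIO + GM replicate 1 at 6 h these values were -0.55 and -0.41.

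Irf1, an activator of antigen presentation and interferon genes, passed in no comparison. At 6 h it stood at 21.4, 30.5 and 18 CPM in CTRL, at 19.6, 24.3 and 32.7 in GM, at 23.4, 15.6 and 29.5 in PIO and at 38, 27.8 and 17.6 in PIO + GM. At 24 h the values were 26.1, 19.8 and 28 CPM in CTRL, 28.4, 30.1 and 32.2 in GM, 21, 27.8 and 21.5 in PIO and 25.5, 30.6 and 21.3 in PIO + GM. The groups overlapped at 6 h, and at 24 h the GM libraries lay just above those of CTRL and PIO. Its log2 fold changes ranged from -0.37 to 0.30 over the 12 treatment comparisons and from -0.11 to 0.24 over the 4 time comparisons, with no unadjusted p under 0.05. The 95% intervals of the treatment comparisons reached from -0.93 to 0.86 on the log2 scale.

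Stat3, the mediator of IL-6 family signals, passed in no comparison between 2 groups. At 6 h it stood at 213, 244 and 192 CPM in CTRL, at 214, 208 and 243 in GM, at 178, 135 and 263 in PIO and at 252, 173 and 149 in PIO + GM. At 24 h it stood at 199, 153 and 167 CPM in CTRL, at 180, 193 and 154 in GM, at 148, 212 and 156 in PIO and at 163, 189 and 156 in PIO + GM. Only GM separated the times, with all 3 libraries at 6 h above all 3 at 24 h. No treatment or time comparison within a treatment gave an unadjusted p under 0.05, and log2 fold changes ranged from -0.21 to 0.03 between treatments and from -0.33 to -0.16 between times.

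Socs3, which blocks receptors of the IL-6 family and is a target of STAT3, fell with time in CTRL. At 6 h it stood at 33.5, 57.7 and 33.2 CPM in CTRL, at 27.3, 32.9 and 45.3 in GM, at 21.7, 25.4 and 51.7 in PIO and at 48, 29.9 and 15 in PIO + GM. By 24 h the libraries held 18.8, 16.8 and 17.5 CPM in CTRL, 23.2, 28.6 and 16.4 in GM, 13.9, 25.4 and 13.4 in PIO and 13.9, 20.8 and 14.1 in PIO + GM. The times did not overlap in CTRL, where the 24 h libraries lay between 16.8 and 18.8 CPM, and they overlapped in the other treatments. In CTRL its mean went from 41.5 to 17.7 CPM, a log2 fold change of -1.23 (SE 0.38, edgeR adjusted p = 0.0224). Without CTRL replicate 2 at 6 h, the library with 57.7 CPM, the log2 fold change was -0.91 and the call was lost (edgeR adjusted p = 0.138). It was also lost without CTRL replicate 1, 2 or 3 at 24 h, with log2 fold changes of -1.27, -1.19 and -1.22 and edgeR adjusted p of 0.0542, 0.0662 and 0.0641. In the other treatments the log2 fold changes were -0.91 in PIO (SE 0.38, unadjusted p = 0.0277, edgeR adjusted p = 0.0791), and -0.94 in PIO + GM (SE 0.38, unadjusted p = 0.0245, edgeR adjusted p = 0.0649), and in GM the unadjusted p was above 0.05. The value in PIO passed without PIO replicate 1 at 6 h (-1.13, edgeR adjusted p = 0.0499) or PIO replicate 2 at 24 h (-1.27, edgeR adjusted p = 0.0434), and was -0.41 without PIO replicate 3 at 6 h (edgeR adjusted p = 0.426). The value in PIO + GM passed without PIO + GM replicate 3 at 6 h (-1.26, edgeR adjusted p = 0.0154) and was -0.47 without replicate 1 at 6 h (edgeR adjusted p = 0.364). The 12 treatment comparisons of Socs3 gave log2 fold changes from -0.48 to 0.36, with no unadjusted p under 0.05. Of the members Socs3 varied most within groups, with a pooled SD of 0.50 on the log2 scale, above that of 80.8% of the genes tested.

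Stat5b, which with Stat5a carries the signals of growth hormone and prolactin, rose with time in PIO + GM. At 6 h it stood at 54.9, 47.1 and 47.4 CPM in CTRL, at 49.7, 43 and 66.1 in GM, at 43.3, 28.9 and 65.1 in PIO and at 46.5, 33.3 and 35.7 in PIO + GM. At 24 h it stood at 76.1, 62.9 and 75.2 CPM in CTRL, at 72.8, 64.9 and 69.1 in GM, at 63.8, 65.3 and 57 in PIO and at 59.2, 63.2 and 58.8 in PIO + GM. All libraries at 24 h exceeded all those at 6 h in CTRL and in PIO + GM, and 1 library at 6 h reached the 24 h range in GM and in PIO. Its mean in PIO + GM went from 38.5 to 60.4 CPM, a log2 fold change of 0.65 (SE 0.21, edgeR adjusted p = 0.0212). This call was lost without PIO + GM replicate 2 at 6 h (log2 fold change 0.56, edgeR adjusted p = 0.0992), replicate 3 at 6 h (0.60, edgeR adjusted p = 0.0617) or replicate 2 at 24 h (0.62, edgeR adjusted p = 0.0586). The log2 fold change was 0.52 in CTRL (SE 0.21, unadjusted p = 0.0208, edgeR adjusted p = 0.0672) and 0.44 in PIO (SE 0.21, unadjusted p = 0.0477, edgeR adjusted p = 0.117), and the PIO value was 0.79 and passed without PIO replicate 3 at 6 h (edgeR adjusted p = 0.00397) but was 0.20 without PIO replicate 2 at 6 h (edgeR adjusted p = 0.493). The CTRL value passed with the GC trend removed (0.47, edgeR adjusted p = 0.0337) and with the libraries of the compared groups alone (0.50, edgeR adjusted p = 0.0248). At 6 h PIO + GM differed from GM by a log2 fold change of -0.46 (SE 0.21, unadjusted p = 0.039, edgeR adjusted p = 0.177), which became -0.28 once the trend of fold change with GC content was removed. It was also -0.28 without GM replicate 3 at 6 h (edgeR adjusted p = 0.517), and -0.63 without PIO + GM replicate 1 at 6 h (edgeR adjusted p = 0.0532).

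Stat5a, its close relative from the neighbouring gene, passed in no comparison. It stood at 27.4, 29.1 and 18.9 CPM in CTRL, 28.9, 30 and 31.4 in GM, 20.8, 14.4 and 30.8 in PIO and 31.3, 20 and 16.6 in PIO + GM at 6 h. At 24 h it stood at 26.7, 19.8 and 35.9 CPM in CTRL, 27.5, 22.4 and 38.9 in GM, 25.3, 22.3 and 21.7 in PIO and 28.1, 21.2 and 22.3 in PIO + GM. Groups overlapped at each time and between times in all 4 treatments. Its time log2 fold changes ranged from -0.02 to 0.13 and its treatment values from -0.45 to 0.26, with no unadjusted p under 0.05. The ratio of Stat5b to Stat5a in RPKM had a median of 1.43 over the 12 libraries at 6 h (range 1.02 to 1.79) and of 1.88 at 24 h (range 1.27 to 2.27), and the difference between the 2 genes was not tested.

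Cish, a target of STAT5 that damps its receptors, fell with time in CTRL. At 6 h it stood at 13.5, 18.4 and 11.1 CPM in CTRL, at 13.1, 14.7 and 9.86 in GM, at 10.8, 6.88 and 10.1 in PIO and at 12.2, 9.79 and 5 in PIO + GM. At 24 h it stood at 6.86, 7.27 and 8.82 CPM in CTRL, at 6.45, 9.73 and 6.81 in GM, at 4.95, 9.11 and 5.29 in PIO and at 5.03, 8.26 and 5.81 in PIO + GM. The times did not overlap in CTRL and GM, and at 6 h the PIO libraries lay below those of CTRL. In CTRL its mean went from 14.3 to 7.65 CPM, a log2 fold change of -0.91 (SE 0.31, edgeR adjusted p = 0.0336). That call rested on nearly all of the 6 libraries, since it was lost without CTRL replicate 1 at 6 h (-0.95, edgeR adjusted p = 0.0573), replicate 2 at 6 h (-0.69, edgeR adjusted p = 0.174) or replicate 1, 2 or 3 at 24 h (-0.83, -0.87 and -1.02, edgeR adjusted p of 0.106, 0.0904 and 0.0517). In GM the log2 fold change was -0.71 (SE 0.31, unadjusted p = 0.0321, edgeR adjusted p = 0.0981). At 6 h PIO + GM gave a mean of 9 CPM, a log2 fold change of -0.66 against CTRL (SE 0.31, unadjusted p = 0.0449, edgeR adjusted p = 0.201). That value was -0.38 without PIO + GM replicate 3 (edgeR adjusted p = 0.591), the shallowest library, and -0.94 without replicate 1 (edgeR adjusted p = 0.0565). The effect of pioglitazone at 6 h averaged over both backgrounds, added after the data were seen, was -0.54 (SE 0.22, unadjusted p = 0.0209, edgeR adjusted p = 0.0874), and it passed without PIO + GM replicate 1 at 6 h (-0.69, edgeR adjusted p = 0.0278) and with the replicate number as a block (-0.54, edgeR adjusted p = 0.0344), where 27% of all genes were called against 16.1% without the block.

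Socs1, the inhibitor of Janus kinases induced by interferons, was the scarcest member, with 12 to 72 counts per library. At 6 h it stood at 3.14, 4.68 and 3.67 CPM in CTRL, at 2.27, 3.71 and 3.4 in GM, at 3.25, 2.33 and 3.04 in PIO and at 3.56, 2.41 and 1.62 in PIO + GM. At 24 h it stood at 2.64, 3.77 and 2.88 CPM in CTRL, at 4.3, 4.86 and 4.07 in GM, at 2.89, 3.32 and 3 in PIO and at 4.37, 2.05 and 2.54 in PIO + GM. The GM libraries at 24 h lay above those of CTRL and PIO and above those of GM at 6 h. Its log2 fold changes ranged from -0.57 to 0.50 between treatments and from -0.30 to 0.49 between times, and none had an unadjusted p under 0.05.

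In the main edgeR fit no member passed in any of the 12 comparisons between treatments. Of the 108 pairs of member and comparison, 7 had an unadjusted p under 0.05, all of them at 6 h, and 0 passed the adjusted threshold of 0.05 by edgeR, against 1 by DESeq2's Wald test (Stat2 in PIO + GM against CTRL at 6 h, adjusted p = 0.041). By DESeq2 the shares of all genes called were 0% in GM against CTRL, 2.35% in PIO against CTRL, 8.09% in PIO + GM against GM, 7.89% in PIO + GM against CTRL, 0.00613% in PIO + GM against PIO and 2.02% in PIO against GM at 6 h, and in the same order 0.0919%, 0.993%, 0.625%, 1.61%, 0.215% and 1.56% at 24 h. Over all genes tested, edgeR called 0% in GM against CTRL, 0.337% in PIO against CTRL, 1.32% in PIO + GM against GM, 2.64% in PIO + GM against CTRL, 0% in PIO + GM against PIO and 0.129% in PIO against GM at 6 h. The same shares at 24 h were 0.0123%, 0.153%, 0.11%, 0.478%, 0.0735% and 0.454%. Single libraries moved these shares. At 6 h the 216 genes called in PIO + GM against GM became 4053 without PIO + GM replicate 1 and 4 without replicate 2, and the 431 called in PIO + GM against CTRL became 3567 and 31. An unadjusted p under 0.05 was reached, in the same order, by 1.49%, 15.2%, 25%, 23.6%, 3.06% and 15.7% of all genes at 6 h and by 1.67%, 9.93%, 7.47%, 9.05%, 2.59% and 10.2% at 24 h, beside 2, 0, 1, 2, 1 and 1 members at 6 h and 0 at 24 h. Libraries that did not overlap between the groups were seen for 1 member, Stat2, in GM against CTRL at 6 h, where 5.23% of all genes did not overlap, and for 2 members, Irf1 and Socs1, at 24 h, where 5.66% did not. In PIO against GM they were seen for 1 member at 6 h, Irf9, beside 18.2% of all genes, and for 3 at 24 h, Stat2, Irf1 and Socs1, beside 21.5%. Cish in PIO against CTRL (15.4% of all genes) and Stat5b in PIO + GM against CTRL (17.9%) at 6 h and Stat5b in PIO + GM against GM at 24 h (18.4%) were the remaining cases. There were 0 such members in PIO + GM against GM (23% of all genes) and PIO + GM against PIO (3.38%) at 6 h, and 0 in PIO against CTRL (22.3%), PIO + GM against CTRL (21%) and PIO + GM against PIO (8.81%) at 24 h.

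The signs of the log2 fold changes in the 12 comparisons of 2 treatments were as follows. In GM against CTRL at 24 h, 8 of 9 members had a positive log2 fold change, with a median of 0.22 beside 0.00 over all genes. In PIO against CTRL at 24 h all 9 were negative with a median of -0.11, beside -0.01 over all genes. Of these, Stat3 and Socs3 at -0.01 and Socs1 at -0.02 lay next to 0. In PIO + GM against GM at 24 h all 9 were negative with a median of -0.31, beside 0.00. PIO against GM gave 9 negative values at both times, with medians of -0.21 at 6 h and -0.37 at 24 h beside 0.00 over all genes. The other 7 comparisons had values of both signs, from 6 positive of 9 in GM against CTRL at 6 h to 1 positive in PIO against CTRL at 6 h and in PIO + GM against CTRL at 24 h. These comparisons share CTRL, GM or PIO libraries and the members share libraries, so the counts of signs are not independent. The 95% intervals of the members reached 0.43 to 0.80 on either side of a log2 fold change within a time point.

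**Figure D3:**
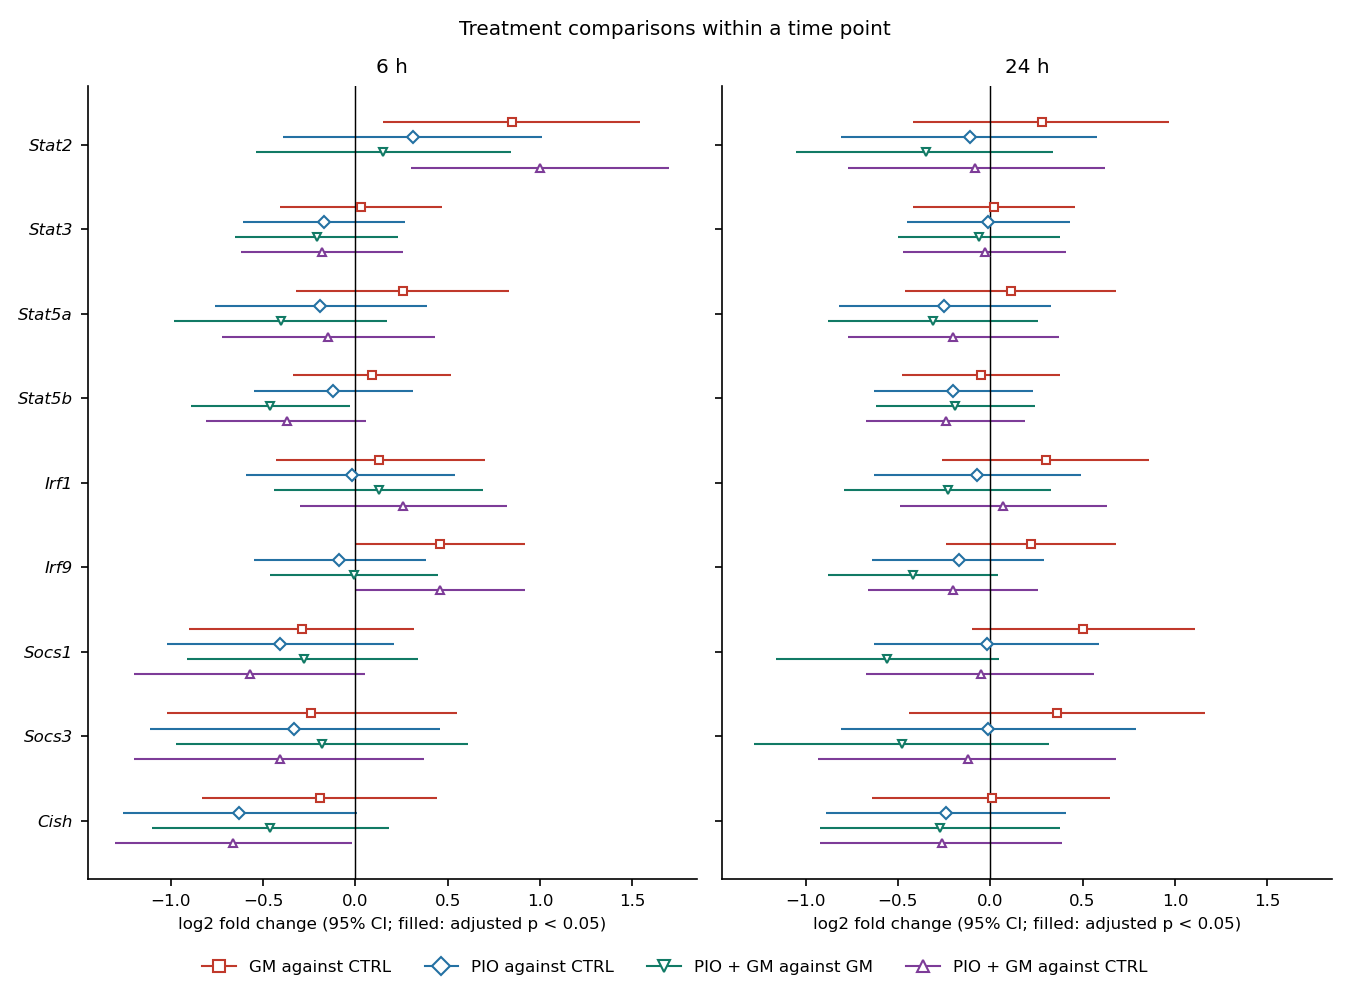
Log2 fold change of each member with its 95% interval in GM against CTRL, PIO against CTRL, PIO + GM against GM and PIO + GM against CTRL, at 6 h (left) and 24 h (right). All symbols are open, since no value passed an edgeR adjusted p of 0.05. Stat2 in PIO + GM against CTRL at 6 h, at 1.00, is the value farthest from 0.

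Between 24 h and 6 h, members passed in CTRL and in PIO + GM. The members called were 2 of 9 in CTRL (28% of all genes were called), 0 of 9 in GM (24.2%), 0 of 9 in PIO (29%) and 3 of 9 in PIO + GM (34.6%), and with 9 members a share of 2 or 3 is not a result about them. Libraries of the 2 times did not overlap for 3 members in CTRL (46.4% of all genes), 4 in GM (44.9%), 1 in PIO (41.3%) and 3 in PIO + GM (43.1%). An unadjusted p under 0.05 was reached by 3 members in CTRL (39% of all genes), 2 in GM (37.2%), 2 in PIO (41.3%) and 4 in PIO + GM (45.5%), while DESeq2 called 2 members in CTRL (30.7% of all genes by DESeq2), 1 in GM (28.2%), 1 in PIO (32.9%) and 4 in PIO + GM (37.9%). The calls added by DESeq2 were Irf9 in GM (log2 fold change -0.58, DESeq2 adjusted p = 0.0458) and Socs3 in PIO (-0.92, DESeq2 adjusted p = 0.0476) and in PIO + GM (-0.96, DESeq2 adjusted p = 0.0346). A contrast of 24 h with 6 h averaged over the 4 treatments, added after the data were seen, called 6 of 9 members, beside 62.6% of all genes (65.9% at an unadjusted p under 0.05), and DESeq2 called 6 as well, beside 64%. It gave log2 fold changes of -0.92 for Socs3 (SE 0.19, edgeR adjusted p = 0.000334), -0.66 for Cish (SE 0.15, 0.00101), -0.58 for Stat2 (SE 0.17, 0.00528), -0.56 for Irf9 (SE 0.11, 0.000219), -0.25 for Stat3 (SE 0.11, 0.0457) and 0.50 for Stat5b (SE 0.10, 0.000367). Of these, 5 held without each of the 24 libraries in turn. The Stat3 call was lost without any of 15 libraries taken one at a time, with log2 fold changes between -0.26 and -0.17 and edgeR adjusted p from 0.0566 to 0.12. It was also lost with the replicate block (-0.25, edgeR adjusted p = 0.0555) and with no filter on low counts (-0.23, edgeR adjusted p = 0.0866). The 5 interactions planned (pioglitazone with against without gentamicin at each time, and GM against CTRL, PIO against CTRL and PIO + GM against GM at 24 h against 6 h) gave 0 calls among the members and 0 with an unadjusted p under 0.05 by edgeR, and 0 by DESeq2. The interaction of PIO + GM against CTRL, added after the data were seen, gave 0 calls by either tool and 2 with an unadjusted p under 0.05, those of Stat2 and Irf9. By edgeR all 6 called 0% of all genes (at an unadjusted p under 0.05, in that order, 1.8%, 1.21%, 0.766%, 4.38%, 4.06% and 5.99%), and DESeq2 called 0% to 0.0735%, so calls in some treatments and not in others do not show that the treatments differ.

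**Figure D4:**
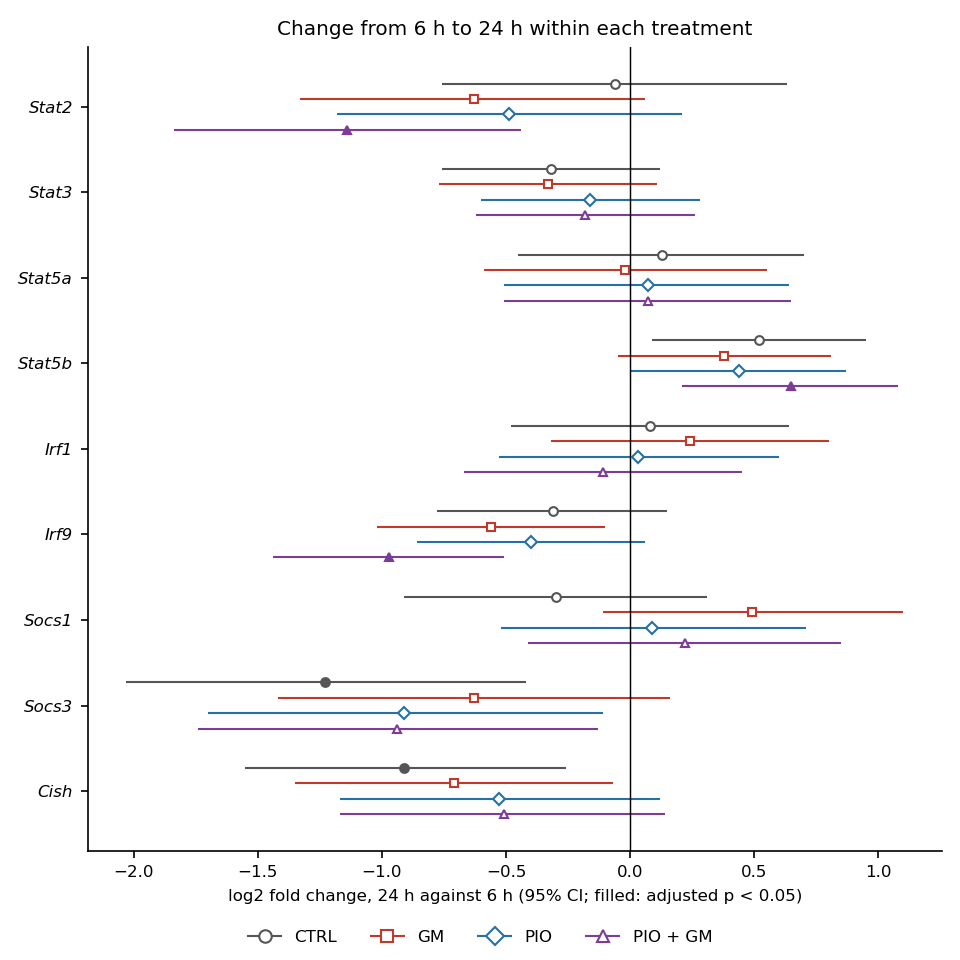
Log2 fold change of each member at 24 h against 6 h with its 95% interval within CTRL, GM, PIO and PIO + GM. Filled symbols passed an edgeR adjusted p of 0.05, and these are Socs3 and Cish in CTRL and Stat2, Irf9 and Stat5b in PIO + GM.

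Libraries high for Stat2 were high for Irf9, and libraries high for Stat3 were high for Socs3. Over the 24 libraries, Pearson's r of log2 CPM was 0.90 for Stat2 and Irf9 and 0.88 after the group means were removed. For Stat3 and Socs3 it was 0.85 and 0.87, and for Socs3 and Cish 0.84 and 0.69. Stat5b and Irf9 had the most negative value of the 36 pairs, -0.38, and 0.17 once group means were removed. These are descriptions over libraries that share groups, times and tissue composition. In PIO + GM at 6 h, replicate 1 was the highest library for all 9 members, and replicate 3, the shallowest library of the series, the lowest for 8.

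**Figure D5:**
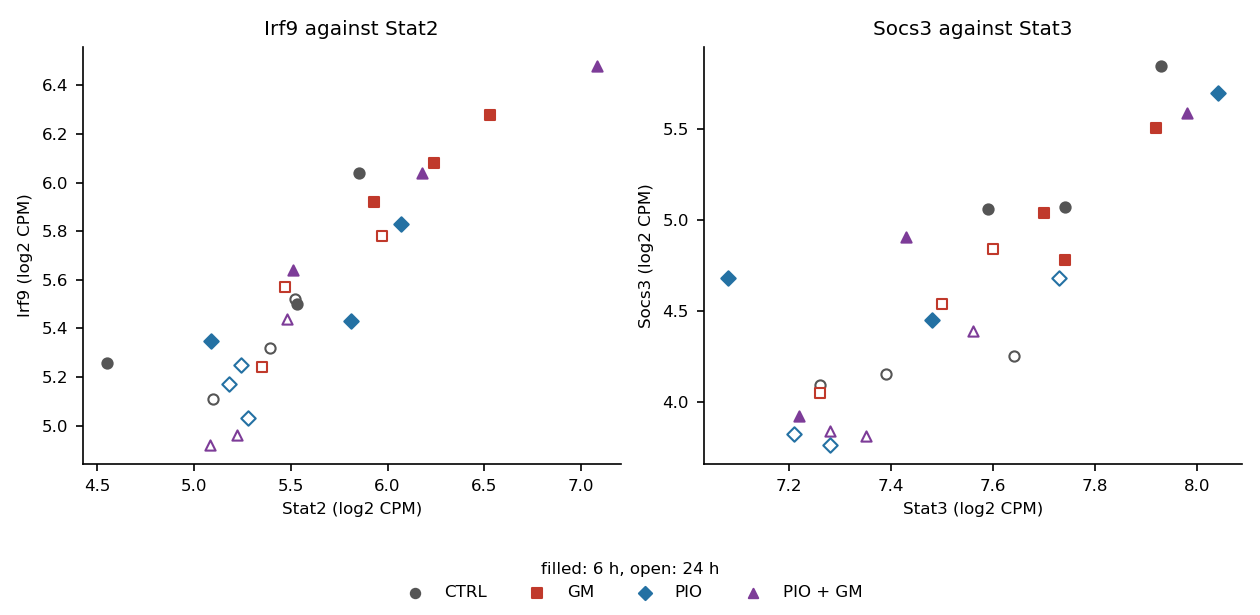
Log2 CPM of Irf9 against Stat2 (left) and of Socs3 against Stat3 (right) in the 24 libraries, with 6 h filled and 24 h open and a symbol for each treatment. Libraries high for one gene of a pair are high for the other, with r of 0.90 and 0.85.

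Among all genes tested, those with the pattern most like a member over the 24 libraries were the following, by Pearson's r. Parp12 (0.92) and Tor3a (0.91) came closest to Stat2, Parp14 and Cmpk2 (both 0.96) to Irf9, and H2-D1 (0.82) and Tmem140 (0.81) to Irf1. Tnfrsf1a (0.92) and Aebp1 (0.90) came closest to Stat3, Kcnk5 (0.94) and Sbno2 (0.93) to Socs3 and Spred2 (0.92) and Fpgs (0.91) to Cish. Stat5b was closest to Tmem63a (0.97) and Nfix (0.96), Stat5a to Fxyd5 and Nat8l (both 0.84) and Socs1 to Mir27b and Dusp7 (both 0.81).

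The rest of the pathway was read from a list of 80 genes, of which 79 were tested, holding 20 receptors, 4 kinases, 13 other family members, 10 inhibitors and phosphatases, 18 targets of STAT3 and STAT5 and 15 targets of ISGF3 and IRF1. In comparisons of 2 treatments at most 2 of 79 were called, near the share of all genes (2.64% in PIO + GM against CTRL at 6 h). In PIO + GM against CTRL at 6 h these were Rsad2, an antiviral target of ISGF3, at 158, 69.8 and 28.4 CPM against 15.2, 22.3 and 5.27 (log2 fold change 2.59, SE 0.67, edgeR adjusted p = 0.0441), and Ccnd1, the cyclin D1 gene, at 74.2, 42.4 and 45.4 CPM against 118, 113 and 135 (-1.18, SE 0.31, edgeR adjusted p = 0.0491). In PIO against GM at 24 h 1 gene was called, Ciita, the activator of MHC class II genes, at 0.129, 0.325 and 0.143 CPM against 1.24, 1.69 and 0.801 (edgeR adjusted p = 0.0208). The PIO values of Ciita are near the level of 3 counts, so no fold is given. In comparisons without a call, Ccnd1 had log2 fold changes of -1.17 in PIO against CTRL (SE 0.31, edgeR adjusted p = 0.0959), -1.24 in PIO + GM against GM (SE 0.31, edgeR adjusted p = 0.0531) and -1.23 in PIO against GM (SE 0.31, edgeR adjusted p = 0.0991) at 6 h, and -1.01 in PIO + GM against CTRL at 24 h (SE 0.31, edgeR adjusted p = 0.187). Serpina3n had values of -1.58 in PIO against CTRL (SE 0.41, edgeR adjusted p = 0.137) and -1.66 in PIO + GM against CTRL (SE 0.42, edgeR adjusted p = 0.082) at 24 h. Of the receptors, Il4ra had -0.56 in PIO against CTRL (SE 0.19, edgeR adjusted p = 0.174) and Lifr 0.40 in PIO + GM against GM (SE 0.10, edgeR adjusted p = 0.0598), both at 6 h. The pioglitazone effect averaged over absence and presence of gentamicin, added after the data were seen, called 4 of 79 higher and 4 lower at 6 h (16.1% of all genes were called) and 0 higher and 8 lower at 24 h (2.79%). At 6 h the 2625 genes called over all became 143 with the compared groups alone and 1141 to 5086 with each library left out. Spearman's rho of that fold change with GC content was -0.56. The 456 called at 24 h became 182 to 385 with each library left out, and 2415 with the replicate block and the GC trend removed. At 6 h Ccnd1 (-1.20, SE 0.22, edgeR adjusted p = 0.00277), Serpina3n (-1.09, SE 0.30, edgeR adjusted p = 0.0224), Il4ra (-0.51, SE 0.13, edgeR adjusted p = 0.0162) and Il10rb (-0.37, SE 0.09, edgeR adjusted p = 0.0114) fell. Socs4 (0.35, SE 0.08, edgeR adjusted p = 0.012), Pias1 (0.35, SE 0.08, edgeR adjusted p = 0.0117), Ptpn2 (0.33, SE 0.10, edgeR adjusted p = 0.0357) and Lifr (0.27, SE 0.07, edgeR adjusted p = 0.0202) rose at 6 h. The averaged gentamicin effect called 0 of 79 at both times, beside 0.0123% of all genes at 6 h and 0.313% at 24 h.

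The 15 targets of ISGF3 and IRF1 were read as a class, which holds genes of the interferon response to ISGF3, such as Isg15 and Mx1, and genes driven by IRF1, such as Ciita and Psmb9. The class was chosen with earlier results of these data known. Its medians are therefore a description and not a test. In GM against CTRL at 6 h their median log2 fold change was 1.49 with 0 called, beside 0.00 over all genes, and the lowest unadjusted p were those of Isg15 (1.88, SE 0.57, unadjusted p = 0.00364, edgeR adjusted p = 1.00) and Mx1 (1.94, SE 0.65, unadjusted p = 0.00752, edgeR adjusted p = 1.00). The other medians at 6 h were 0.01 in PIO against CTRL, 0.18 in PIO + GM against GM, 1.64 in PIO + GM against CTRL (1 called, Rsad2), 1.54 in PIO + GM against PIO and -1.37 in PIO against GM, and those of the averaged effects were 0.18 for pioglitazone and 1.54 for gentamicin, with 0 called in each but the one named. At 24 h the median was 0.62 in GM against CTRL, -1.43 in PIO against CTRL, -1.33 in PIO + GM against GM, -0.71 in PIO + GM against CTRL, 0.43 in PIO + GM against PIO and -2.30 in PIO against GM, with 1 gene called over these 6 comparisons, Ciita. In the averaged pioglitazone effect at 24 h the median was -1.38 and 4 of 15 fell, among them Ifit3 (-2.03, SE 0.51, edgeR adjusted p = 0.0349), Mx1 (-2.01, SE 0.49, edgeR adjusted p = 0.0314) and Ciita (edgeR adjusted p = 0.0343). The libraries of Ciita were lower without gentamicin, at 0.129, 0.325 and 0.143 CPM in PIO against 1.14, 0.991 and 1.13 in CTRL, while with it they overlapped, at 0.596, 1.36 and 1.06 CPM in PIO + GM against 1.24, 1.69 and 0.801 in GM. The difference between these effects did not pass (unadjusted p = 0.00578, edgeR adjusted p = 1.00), nor did PIO + GM against PIO (unadjusted p = 0.000303, edgeR adjusted p = 0.159). Serpina3n, a target of STAT3, fell as well (-1.46, SE 0.29, edgeR adjusted p = 0.0105). The 17 tested targets of STAT3 and STAT5 had medians between -0.55 and 0.06 in the 12 treatment comparisons.

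Of the 17 tested targets of STAT3 and STAT5, 6 fell and 1 rose in CTRL, 6 fell in GM, 7 in PIO and 7 in PIO + GM from 6 h to 24 h. Over all genes, 13.2% fell and 14.8% rose in CTRL, 11.7% and 12.5% in GM, 15.8% and 13.2% in PIO and 17% and 17.6% in PIO + GM, and in the averaged contrast 30.7% fell and 31.9% rose. The largest falls by the fixed rule in CTRL were those of Timp1, an inhibitor of matrix proteases, from a mean of 70.8 to 10.9 CPM (log2 fold change -2.70, SE 0.37, edgeR adjusted p = 4.53e-05), Myc from 37.7 to 7.84 CPM (-2.26, SE 0.40, edgeR adjusted p = 0.000383) and the cytokine gene Lif from 12.8 to 2.7 CPM (-2.26, SE 0.46, edgeR adjusted p = 0.00125). Il6 was also called in all 4 treatments, but its 24 h libraries held 0 to 0.349 CPM, at or near the level of 3 counts, and no fold is given. Of the genes that rose in CTRL, the IL-11 receptor gene Il11ra1 went from 23.5 to 50.3 CPM (1.10, SE 0.19, edgeR adjusted p = 0.000407), Serpina3n, a protease inhibitor, went from 7.08 to 15.7 CPM (1.15, SE 0.41, edgeR adjusted p = 0.042), Psmb9, an immunoproteasome gene, passed at 0.402, 0.529 and 0.319 CPM against 1.58, 0.595 and 1.57 CPM (edgeR adjusted p = 0.0106), with its 6 h values near the level of 3 counts and so no fold given, and the phosphatase gene Ptpn6 went from 9.48 to 14.6 CPM (0.62, SE 0.20, edgeR adjusted p = 0.0293).

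The 15 targets of ISGF3 and IRF1 showed 0 falls and 1 rise in CTRL, 1 fall in GM, 8 falls in PIO and 10 falls in PIO + GM, with median log2 fold changes of 0.03, -0.73, -1.83 and -2.71. In the same order, 13.2%, 11.7%, 15.8% and 17% of all genes fell. None of the 15 was called in any of the 6 interactions, so a difference between treatments in these time changes was not shown. In PIO + GM Rsad2 went from a mean of 85.5 to 4.38 CPM (log2 fold change -4.27, SE 0.73, edgeR adjusted p = 0.000281) and Ifit3, another interferon-induced gene, from 61.5 to 5.28 CPM (-3.54, SE 0.74, edgeR adjusted p = 0.00133). Timp1 fell there as well (-3.09, SE 0.38, edgeR adjusted p = 1.63e-05). Tyk2, a kinase of the type I interferon receptor, rose from 26.6 to 48.2 CPM (0.86, SE 0.18, edgeR adjusted p = 0.00154). So did Il11ra1 (1.15, SE 0.20, edgeR adjusted p = 0.000269), Ptpn6 (0.77, SE 0.21, edgeR adjusted p = 0.00773) and Pias3, an inhibitor of STAT3 (0.83, SE 0.21, edgeR adjusted p = 0.00559). In PIO Rsad2 fell (-2.79, SE 0.72, edgeR adjusted p = 0.00807) with Timp1 (-2.83, SE 0.37, edgeR adjusted p = 5.32e-05) and Ciita (edgeR adjusted p = 0.000478), and Il11ra1 (0.98, SE 0.19, edgeR adjusted p = 0.00124) and Tyk2 (0.51, SE 0.18, edgeR adjusted p = 0.0401) rose. In GM Timp1 (-2.39, SE 0.37, edgeR adjusted p = 0.000147), Lif (-2.36, SE 0.46, edgeR adjusted p = 0.00121) and Il6ra, the IL-6 receptor gene (-1.72, SE 0.33, edgeR adjusted p = 0.000974), fell, and Il11ra1 (1.10, SE 0.19, edgeR adjusted p = 0.000468), Lifr (0.42, SE 0.10, edgeR adjusted p = 0.00638) and Pias1 (0.35, SE 0.12, edgeR adjusted p = 0.0376) rose. Of the 4 Janus kinases 1 was called lower in CTRL and in GM, and 1 was called higher and 2 lower in PIO and in PIO + GM. The mean of Jak1 went from 367 to 234 CPM and that of Jak2 from 133 to 94.6 CPM in PIO + GM. Of the 13 other family members 1 was called lower in CTRL and in GM, 3 in PIO and 2 in PIO + GM, with 0 called higher.

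Some marker genes of other cells were also called between the times. The summed level of 7 Schwann cell genes ranged from 420 to 2765 CPM at 6 h and from 377 to 938 CPM at 24 h, and 3 or 4 of 7 were called lower in each treatment, with 1 called higher in PIO + GM. That of 13 macrophage genes ranged from 61.4 to 156 CPM at 6 h and from 94.5 to 301 CPM at 24 h, with 2 to 5 of 13 called higher, and no marker was at 0 throughout a group. The sums of 10 HC genes ranged from 171 to 416 CPM at 6 h and from 137 to 362 CPM at 24 h, and those of 10 supporting cell genes from 1818 to 6206 CPM and from 3112 to 4950 CPM. Of the supporting cell genes 1 or 2 were called higher at 24 h in each treatment, and 5 in the averaged contrast. Of the HC genes 2 were called higher at 24 h in PIO, and the averaged time contrast called 3 higher and 2 lower, beside 8 macrophage genes higher and 5 Schwann cell genes lower. Over all genes, 12.5% to 17.6% were called higher and 11.7% to 17% lower within a treatment, and 31.9% and 30.7% in the averaged contrast. Counts of 1 or 2 markers in a treatment, and of 3 and 2 HC genes in the averaged contrast, are not a result about a cell type. Between treatments, 1 of the 10 HC genes was called lower in PIO + GM against CTRL at 6 h (median log2 fold change -1.02) and 5 in the averaged pioglitazone effect at 6 h (median -0.69), where Cish stood at -0.54 and passed with the replicate block (edgeR adjusted p = 0.0344) but not without it (edgeR adjusted p = 0.0874). In that averaged effect 1 of 7 Schwann cell genes was called lower and 1 of 13 macrophage genes higher, and in the averaged gentamicin effect at 24 h 1 HC gene was called lower. Of all genes, edgeR called 2.64% in PIO + GM against CTRL and 16.1% in the averaged pioglitazone effect at 6 h. In the averaged gentamicin effect at 24 h it called 0.313%. In bulk libraries fewer cells of a type and less RNA per cell cannot be told apart, and the part of these shifts in the values of Stat2, Irf9, Stat5b, Socs3 and Cish was not tested. Across genes, the fold change also followed GC content, with a Spearman's rho of -0.62 in PIO + GM against GM and -0.58 in PIO + GM against CTRL at 6 h, 0.35 and 0.31 between times in PIO + GM and PIO, and 0.03 in CTRL. With that trend removed, the time change of Socs3 was -1.30 in PIO + GM (edgeR adjusted p = 0.00383) and -1.21 in PIO (edgeR adjusted p = 0.00726), both of which then passed.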

How the data were processed

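RNA of 24 libraries, 3 for each of 4 treatments at 2 times, was sequenced by the authors, who aligned reads to the mouse genome (mm10) with RNA-STAR at default parameters, counted reads starting in RefSeq exons with QuasR, and deposited whole-number counts per gene beside a gene length. Whether the counting used the strand, and how multiply aligned reads were counted, are not given in the sources used here. All count columns could be assigned to a library by name. From the deposited counts, CPM, which scales counts to a common library total, and RPKM, which also divides by the deposited length, were computed. Genes were kept by edgeR's filterByExpr (16317 kept). Differences were tested in R 4.3.3 with edgeR 4.0.16, by the quasi-likelihood F-test on TMM-scaled counts with 1 mean per group over all 24 libraries (common biological coefficient of variation 0.225), with Benjamini-Hochberg adjustment over all genes tested and a threshold of 0.05. Log2 CPM used a prior count of 2. Contrasts averaged over treatments and the interaction of PIO + GM against CTRL with time were chosen after seeing the data. The script was tested on simulated data.

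All 9 members are named in every library, with fold change and error where the unadjusted p was under 0.05. Of the pathway list, the genes named in a comparison were those that passed, up to 4 in each direction by size of change, and otherwise the 2 with the lowest unadjusted p. The 2 genes most like each member were those with the highest Pearson's r of log2 CPM. The members and lists were chosen with earlier results of these data known. Some further members of these families are not reported here. Alternatives were DESeq2 1.42.0, other scalings and filters, the replicate number as a block, removal of the trend with GC content, the compared groups alone, and leaving out each library.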

Additional observations from a re-analysis of the deposited data

How the results depend on the processing

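For the 29 pairs of member and comparison with an unadjusted p under 0.05, 573 alternative values were computed. Of these 518 kept their direction and side of the threshold, 32 lost the call, 23 gained one and 0 reversed. Many of these pairs were not called, and for them staying uncalled counts as kept. Leaving out each of 6 libraries lost the time call of Socs3 in 4 cases and of Cish in 5 in CTRL. In PIO + GM it lost that of Stat2 in 2 cases, of Stat5b in 3 and of Irf9 in 0. For the number of members called, PIO + GM against CTRL at 6 h went from 0 to 1, Stat2, with DESeq2 (7.89% of all genes called) and with the replicate block and the GC trend removed (5.31%), against 2.64% of all genes by the edgeR fit of the report. Between times the count in CTRL went from 2 to 1 with no filter, to 3 (Stat5b added) with the GC trend removed, also with the block, and with the compared groups alone, and ranged from 0 to 2 with each library left out. In GM it went from 0 to 2 with the GC trend removed, also with the block, and to 1 with DESeq2 or the compared groups alone. In PIO it went from 0 to 1 with the GC trend removed or DESeq2, to 2 with the block and the GC trend removed, and ranged from 0 to 1 with each library left out. In PIO + GM it went from 3 to 5 with the block and the GC trend removed, to 4 with the GC trend removed or DESeq2, and ranged from 2 to 3 with each library left out. The share of all genes called rose with these counts, with the GC trend removed from 28% to 35.7% in CTRL, 24.2% to 32% in GM, 29% to 31.6% in PIO and 34.6% to 35.2% in PIO + GM, and with the block as well to 38.5%, 35.1%, 34.2% and 37.9%. With the compared groups alone it was 27.4% in CTRL and 26.8% in GM, and with no filter 16.2% in CTRL. The averaged pioglitazone effect at 6 h went from 0 to 1 with the block (Cish, log2 fold change -0.54, edgeR adjusted p = 0.0344) and ranged from 0 to 1 with each library left out. The cause was not tested.

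Same-numbered libraries had a mean correlation of deviations from the group means of 0.113 at 6 h (-0.305 to 0.684) and 0.38 at 24 h (-0.0245 to 0.723), against -0.0547 and -0.182 for different numbers, and 8 of 12 libraries at each time correlated best with their own number. This is a hint of pairing, but not every same-numbered pair correlated above 0.1, and the labels do not say what a number marks. With the replicate block no call of a member changed in the comparisons planned at the start, and the averaged Stat3 call was lost (-0.25, edgeR adjusted p = 0.0555). For comparisons of the times the block joined equal numbers across 6 h and 24 h. Between the times, same-numbered libraries of a treatment had a mean correlation of -0.0118, against 0.0101 for different numbers. Blocks within time points lowered the common biological coefficient of variation from 0.225 to 0.177. Over all genes, the block moved the count of calls at 6 h from 55 to 371 in PIO against CTRL, from 216 to 1990 in PIO + GM against GM, from 431 to 1543 in PIO + GM against CTRL and from 21 to 331 in PIO against GM. At 24 h it moved it from 2 to 12 in GM against CTRL, 25 to 241 in PIO against CTRL, 18 to 98 in PIO + GM against GM, 78 to 318 in PIO + GM against CTRL and 74 to 290 in PIO against GM. With the compared groups alone these counts were 0 in PIO against CTRL, PIO + GM against GM and PIO against GM and 2 in PIO + GM against CTRL at 6 h, and the time count in PIO was 1540 against 4731. Leaving out each library in turn gave 6 to 120 calls over all genes in PIO against CTRL and 10 to 86 in PIO against GM at 6 h. The ranges at 24 h were 1 to 2 in GM against CTRL, 2 to 51 in PIO against CTRL, 1 to 8 in PIO + GM against GM, 15 to 73 in PIO + GM against CTRL, 4 to 17 in PIO + GM against PIO and 13 to 63 in PIO against GM. Between times the ranges were 2665 to 4295 in CTRL, 2164 to 3732 in GM, 2702 to 6055 in PIO and 3453 to 6076 in PIO + GM. Depth limits Socs1 most, with 12 to 72 counts per library.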
